A study of Mus musculus with 8 samples.

Results

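Sectm1a, Sectm1b and Fgl1, 3 genes for secreted or membrane-bound ligands of lymphocyte receptors, were examined with Cd274, Pdcd1lg2, Cd80, Cd86 and Vsir, 5 genes for ligands of immune checkpoint and costimulatory receptors. The 8 genes were picked by symbol from a table of 55401 genes, and all 8 were among the 16964 genes that passed the filter on low counts. They were selected on the comparison between the same 8 libraries that is described here. Their differences between the groups are therefore given as descriptions without a test, and tests are given only for other genes, from lists of receptors, ligands, pathways and markers and from the neighbours. The lists were also chosen with earlier results of these data known, so their counts of calls are not independent evidence.

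The study measured mouse airway cells by bulk RNA sequencing after inactivation of Cdh1, the gene of the epithelial adhesion protein E-cadherin, in club cells. The 4 control libraries had the genotype Scgb1a1cre; Cdh1F/+ and the 4 libraries labelled mutant had the genotype Scgb1a1cre; Cdh1F/F. All 8 came from Day 10, 10 days after tamoxifen, so both groups carried the Cre and had received tamoxifen, and the controls had 1 floxed Cdh1 allele. Scgb1a1, whose promoter drives the Cre, encodes the protein that club cells secrete most, so a floxed allele can recombine only where that promoter has been active. The labels used here give no age. They do not call the libraries of a group separate animals, and a p-value therefore sets a difference against the spread among these libraries, which may be technical.

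The series text describes that endothelial and immune cells were depleted, that EPCAM-expressing cells were kept and that GFP+ and GFP- cells were sorted, and the labels do not say which fraction a library holds. Between 15111663 and 21673654 fragments were assigned to genes per library, and 3 counts corresponded to 0.136 to 0.207 CPM. CPM here are counts per 1e6 of a library's total scaled by the trimmed mean of M-values (TMM). The targeted gene checked no label: Cdh1 had 383.5 ± 44.7 CPM (SD, n = 4) in controls against 403.4 ± 6.08 CPM (SD, n = 4) in mutant-labelled libraries, with an adjusted p of 0.648 in edgeR's quasi-likelihood test. Counting over the whole gene also takes in exons outside a floxed stretch. Markers of the depleted cell types were abundant, with the endothelial gene Pecam1 at 1173 ± 183 CPM among controls and 842.4 ± 57.6 CPM among mutant-labelled libraries (adjusted p = 0.0369, edgeR). The epithelial gene Epcam stood at 67.1 ± 6.91 CPM and 102.7 ± 6.79 CPM (adjusted p = 0.00299, edgeR), and the pan-leukocyte gene Ptprc at 111.3 ± 64.0 and 99.99 ± 9.48 CPM (adjusted p = 0.789, edgeR). The libraries are thus mixtures in which a lower level can come from fewer cells of a type or from less RNA per cell, and these cannot be told apart. The controls were not alike: on the first principal component, with 48.8% of the variance, controls 2 and 3 lay at -46.5 and -53.7, controls 1 and 4 at -4.10 and -9.78, and the mutant-labelled libraries at 24.5 to 31.6. Results that rest on these controls are also given without them.

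Checkpoint ligands are surface or secreted proteins that dampen or support lymphocyte activation when they bind their receptors. Cd274 encodes PD-L1 and Pdcd1lg2 encodes PD-L2, the ligands of PD-1, while Cd80 and Cd86 encode the B7 proteins of antigen-presenting cells, which bind CD28 and CTLA-4. Vsir encodes VISTA, a B7-related protein of myeloid cells. Fgl1 encodes a fibrinogen-like protein known as a product of the liver and as a ligand of LAG-3, and the Sectm1 genes encode epithelial and myeloid proteins that bind CD7 and, for mouse Sectm1a, GITR.

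Sectm1a and Sectm1b lie side by side on chromosome 11. The gene Sectm1a (ENSMUSG00000025165.12) spans chr11:121067407-121081220 and Sectm1b (ENSMUSG00000039364.13) spans chr11:121053458-121063569 in GRCm38, both on the minus strand, with 3838 bases between them. Their coding sequences of 579 and 639 bases were aligned because reads of near-identical copies can be lost when only uniquely placed reads are counted. Of 579 aligned positions 369 were identical, which is 63.7%, beside 60 gap positions. The 5′ ends of the aligned coding sequences are given to make that divergence visible, from coding base 3 to 149 in Sectm1a and 3 to 152 in Sectm1b, from GENCODE transcripts. Capitals mark where the genes differ: of 150 alignment columns 62 hold different bases, and 3 more hold a base against a gap.
Sectm1a: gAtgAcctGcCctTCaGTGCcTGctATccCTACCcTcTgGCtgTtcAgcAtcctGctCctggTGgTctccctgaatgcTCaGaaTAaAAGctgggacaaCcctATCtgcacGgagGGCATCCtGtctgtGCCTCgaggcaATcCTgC
Sectm1b: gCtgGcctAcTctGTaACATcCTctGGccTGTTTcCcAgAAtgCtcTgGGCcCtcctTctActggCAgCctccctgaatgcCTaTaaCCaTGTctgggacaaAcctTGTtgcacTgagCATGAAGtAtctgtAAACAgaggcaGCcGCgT
The longest identical run in the coding alignment was 12 bases. Across all transcripts of each gene, 0 of 1833 stretches of 50 bases in Sectm1a and 0 of 2797 in Sectm1b occurred in the other gene or in any other gene, so at this length the reads of the pair can be assigned to one gene or the other.

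The stretch directly upstream of Sectm1b is shown because this gene had the largest fold difference of the 8 between the groups. It is the 250 bases before the annotated start at chr11:121063570-121063819 on the minus strand, from RefSeq on GRCm38.p6, in lower case throughout since no searched motif was found in it.
Sectm1b upstream: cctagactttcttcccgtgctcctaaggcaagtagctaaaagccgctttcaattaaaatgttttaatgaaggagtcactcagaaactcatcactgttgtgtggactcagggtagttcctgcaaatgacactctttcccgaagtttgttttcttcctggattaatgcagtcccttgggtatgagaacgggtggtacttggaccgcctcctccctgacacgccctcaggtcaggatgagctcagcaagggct
The motifs searched on both strands in windows of 300 bases, from 250 before to 50 after a start, were a STAT-type TTCNNNGAA, an IRF-type AAANNGAAA, an AP-1-type TGANTCA, an NF-kB-type GGGANTTTC, a C/EBP-type TTGCNNAA and the TATA box TATAAA. They occurred in 8.3%, 10.6%, 7.81%, 1.11%, 10.8% and 13.6% of 32851 promoters of the same length. Windows of 5 of the 8 genes were at hand. Those of Sectm1b and Vsir held none of these letters, and those of Cd274, Pdcd1lg2 and Cd80 each held the IRF-type letters, at -175 to -167, at -35 to -27 and at 31 to 39 from the start. The Cd80 window also held the AP-1-type letters at -42 to -36 and TATAAA at 5 to 10. A match is a stretch of letters and not a measured binding site.

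Sectm1a, Sectm1b and Fgl1 were near the detection floor in all 4 controls and well above it in all 4 mutant-labelled libraries. Sectm1a had 6, 2, 3 and 5 counts in control libraries 1 to 4 and 99, 66, 107 and 76 counts in mutant-labelled libraries 1 to 4. These are 0.289, 0.138, 0.176 and 0.256 CPM against 5.70, 3.60, 5.99 and 3.44 CPM. The lowest mutant-labelled library was thus more than 10 times the highest control. The group means were 0.215 ± 0.0698 CPM and 4.68 ± 1.35 CPM (SD, n = 4 each), and the summed counts, scaled for library size, differed 20.6-fold with a 95% exact interval of 12.5 to 36.5 that covers counting error only.

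Sectm1b, the neighbouring paralog, had 3, 4, 4 and 9 counts in the controls and 212, 160, 186 and 166 counts in the mutant-labelled libraries. In CPM it stood at 0.145, 0.276, 0.235 and 0.461 in the controls and at 12.2, 8.72, 10.4 and 7.52 in the mutant-labelled libraries. The group means were 0.279 ± 0.133 and 9.72 ± 2.04 CPM (SD, n = 4 each), and the summed counts differed 34.4-fold (95% interval 22.1 to 56.6). Per kilobase of gene length, the ratio of Sectm1b to Sectm1a was 1.3, 1.48, 1.06 and 1.33 in the mutant-labelled libraries. In the controls the same ratio ran from 0.304 to 1.22, with at most 9 counts behind any value, so no difference in the balance of the pair was detectable at this depth.

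Fgl1 (ENSMUSG00000031594.9, chr8:41191434-41215156, minus strand) had 4, 4, 3 and 3 counts in the controls and 85, 81, 67 and 63 counts in the mutant-labelled libraries. Its level was 0.193, 0.276, 0.176 and 0.154 CPM in controls and 4.89, 4.42, 3.75 and 2.85 CPM in mutant-labelled libraries. The groups did not overlap, and mutant-labelled library 4 was the lowest of its group for Fgl1 as it was for both Sectm1 genes. The means were 0.200 ± 0.0531 and 3.98 ± 0.884 CPM (SD, n = 4 each), and the summed counts differed 20.1-fold (95% interval 11.8 to 37.2). By fitted log2 fold change, Sectm1b at 5.09, Sectm1a at 4.36 and Fgl1 at 4.29 ranked 6, 12 and 13 among the 16964 genes, whose median was -0.01. These fold changes lean on few control counts: with a prior count of 2 they were 4.66, 3.86 and 3.74. In the same order they were 4.99, 4.07 and 4.46 without controls 2 and 3, and 5.21, 4.82 and 4.11 without controls 1 and 4.

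Epithelial transcripts were more abundant in the same mutant-labelled libraries, so the 3 levels were also set against Epcam within each library. Sectm1a was 0.187% to 0.50% of the Epcam level in controls and 3.40% to 6.11% in mutant-labelled libraries. Sectm1b was 0.250% to 0.654% and 7.83% to 11.04%, and Fgl1 was 0.218% to 0.374% and 2.97% to 4.42%. The groups remained apart for all 3 genes, with ratios of the means of 13.9, 23.1 and 12.9.

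**Figure D1:**
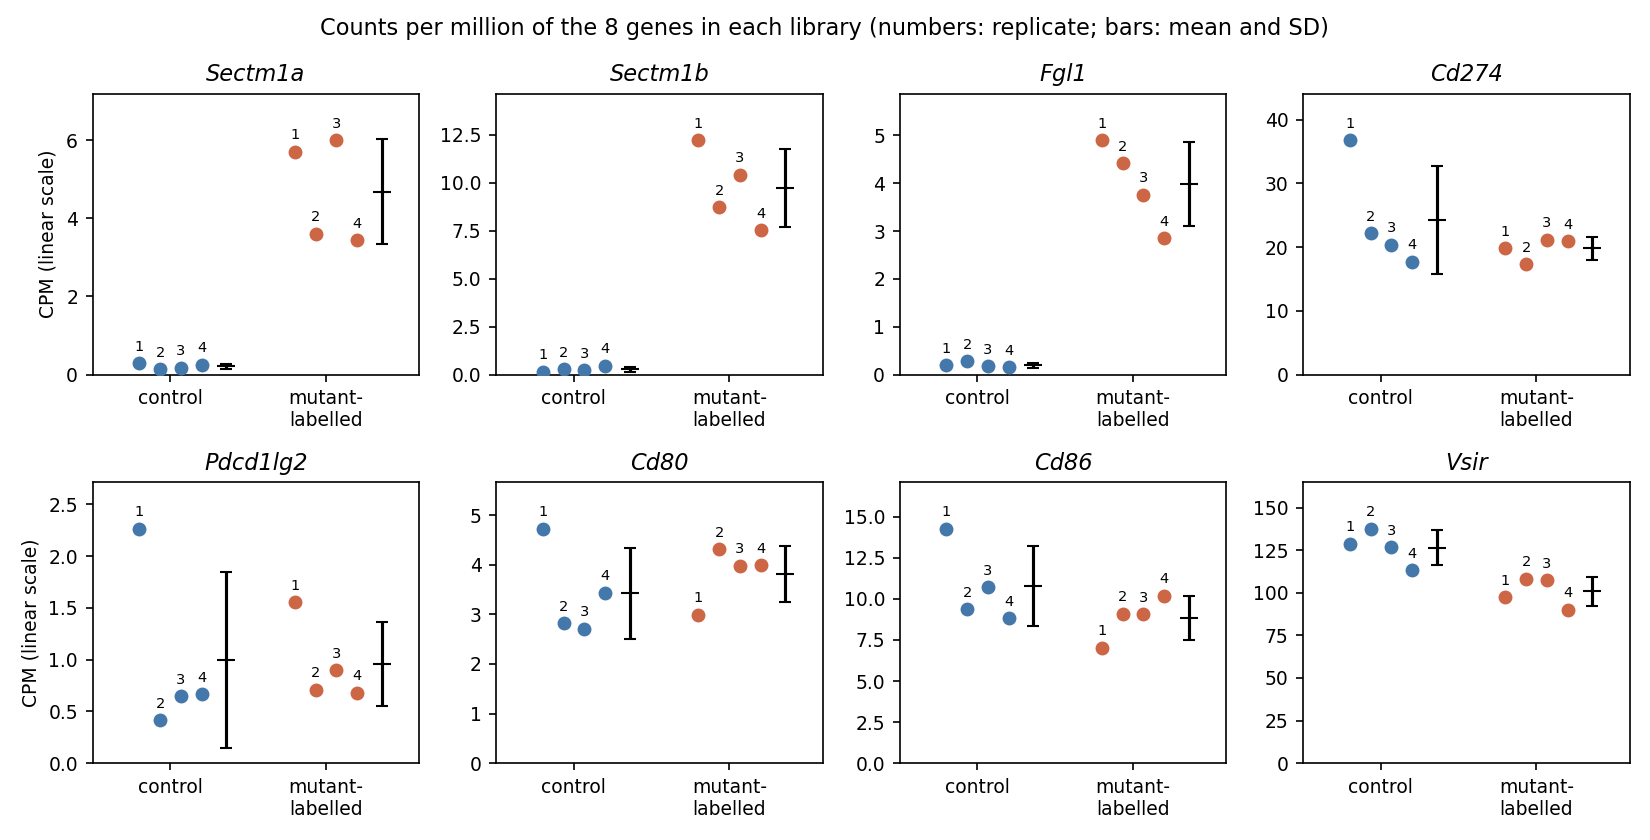
Level of each of the 8 genes in each library, in CPM on a linear axis from 0, with 1 numbered point per library and a bar for the group mean and SD (n = 4). Sectm1a, Sectm1b and Fgl1 separate widely, Vsir is lower in the mutant-labelled libraries without overlap, and the groups overlap for Cd274, Pdcd1lg2, Cd80 and Cd86.

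The PD-1 ligands gave a different picture, with overlapping groups. Cd274 (ENSMUSG00000016496.7, chr19:29367455-29388095, plus strand) stood at 36.8, 22.2, 20.4 and 17.7 CPM in control libraries 1 to 4 and at 19.8, 17.3, 21.2 and 20.9 CPM in mutant-labelled libraries 1 to 4. Control library 1 was the highest of all 8, and the other 3 controls lay in about the same range as the mutant-labelled libraries. The means were 24.3 ± 8.53 and 19.8 ± 1.75 CPM (SD, n = 4 each), a log2 fold change of -0.30. Leaving out control 1 gave -0.02, leaving out controls 2 and 3 gave -0.46, and leaving out controls 1 and 4 gave -0.10.

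Pdcd1lg2 (ENSMUSG00000016498.10, chr19:29410919-29471161, plus strand) begins 22824 bases beyond the end of Cd274. It was at 2.26, 0.413, 0.647 and 0.666 CPM in controls and 1.55, 0.709, 0.896 and 0.679 CPM in mutant-labelled libraries, from 6 to 47 counts per library. Control 1 was again the highest library, and it set the sign of the difference: the log2 fold change was -0.12 with it and 0.70 without it. Without controls 2 and 3 it was -0.63, and without controls 1 and 4 it was 0.81. The summed counts of 77 and 71 differed 0.875-fold, with a 95% counting interval of 0.625 to 1.22.

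The B7 ligands of CD28 and CTLA-4 overlapped between the groups as well. Cd80 (ENSMUSG00000075122.5, chr16:38455561-38496335, plus strand) stood at 4.72, 2.82, 2.70 and 3.43 CPM in controls and 2.99, 4.31, 3.98 and 3.98 CPM in mutant-labelled libraries, with means of 3.42 ± 0.924 and 3.82 ± 0.569 CPM (SD, n = 4 each). Cd86 (ENSMUSG00000022901.13, chr16:36603869-36666081, minus strand) stood at 14.3, 9.37, 10.7 and 8.81 CPM in controls and 7.02, 9.11, 9.07 and 10.2 CPM in mutant-labelled libraries, with means of 10.8 ± 2.45 and 8.85 ± 1.32 CPM (SD, n = 4 each). Control 1 was the highest library for both genes. The log2 fold changes were 0.15 for Cd80 and -0.29 for Cd86, and 0.35 and -0.12 without control 1. Without controls 2 and 3 they were -0.09 and -0.38, and without controls 1 and 4 they were 0.46 and -0.18.

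Control 1 also stood high in some leukocyte genes. Ptprc was at 204.4 CPM there and at 75.6, 64.1 and 101.0 CPM in controls 2 to 4, against 93.2 to 113.6 CPM in the mutant-labelled libraries. The dendritic cell and macrophage integrin Itgax was at 102.7 CPM in control 1 and 42.8 to 60.1 CPM in the other controls. The macrophage gene Adgre1 was not high there, at 25.6 CPM in control 1 and 22.4 to 25.9 CPM in the other controls. Cd274 was 17.6% to 31.8% of the Ptprc level in controls and 18.5% to 22.4% in mutant-labelled libraries, so the groups overlapped on that scale too. Relative to Epcam, which itself rose, Cd274 was 25.1% to 63.6% in controls and 16.4% to 21.8% in mutant-labelled libraries, and Cd86 was 12.5% to 24.7% and 6.35% to 10.6%, without overlap. Relative to Pecam1, Cd274 was 1.49% to 3.66% in controls and 1.98% to 2.75% in mutant-labelled libraries. On that scale Cd86 was 0.728% to 1.42% and 0.828% to 1.34%, and the groups overlapped for both. The part of leukocyte or endothelial content in the levels of Cd274, Pdcd1lg2, Cd80 and Cd86 was not tested.

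**Figure D2:**
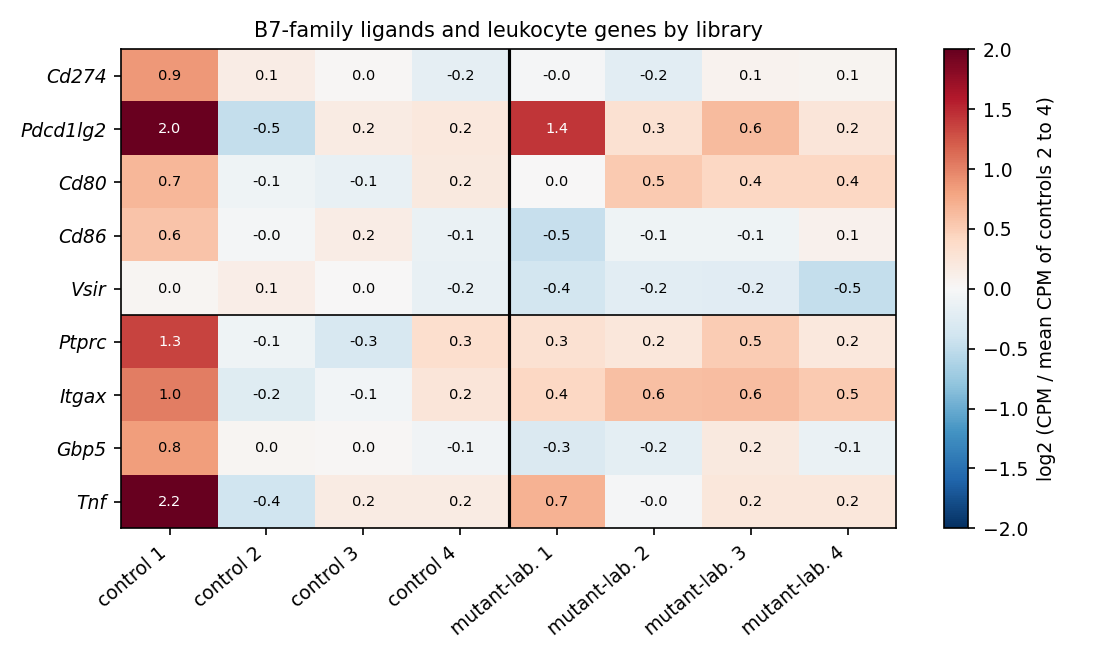
Level of the checkpoint ligands, of the leukocyte genes Ptprc and Itgax, and of Gbp5 and Tnf in each library. Values are log2 of the CPM over the gene's mean in controls 2 to 4. They are given in colour (which saturates at 2) and in numbers. Gbp5 and Tnf were picked as close profiles of Cd274 and Pdcd1lg2, so their likeness to these in control 1 is not independent. Control 1 is the highest control for Cd274, Pdcd1lg2, Cd80, Cd86, Ptprc and Itgax.

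Vsir (ENSMUSG00000020101.14, chr10:60346851-60372684, plus strand) was the most abundant of the 8 genes and the only one lower in every mutant-labelled library than in every control. It stood at 128.9, 137.5, 126.6 and 113.2 CPM in controls and at 97.3, 108.2, 107.4 and 90.0 CPM in mutant-labelled libraries. The means were 126.5 ± 10.1 and 100.7 ± 8.73 CPM (SD, n = 4 each), a log2 fold change of -0.33 that ran from -0.38 to -0.28 when single libraries were left out, and was -0.26 without controls 2 and 3 and -0.39 without controls 1 and 4. Pecam1 was lower in the same libraries: relative to it, Vsir was 9.24% to 12.8% in controls and 11.5% to 12.4% in mutant-labelled libraries, and the groups overlapped. Relative to Ptprc, Vsir was 63.0% to 197.5% in controls and 94.6% to 115.4% in mutant-labelled libraries, and the groups overlapped too. Relative to Epcam it was 160.4% to 223.1% and 88.0% to 109.5%, without overlap. Whether the endothelial or leukocyte content bears on the level of Vsir was not tested.

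Of the 8 genes, the mutant-labelled libraries thus lay above all controls for 3 and below all controls for 1, against 9.75% and 7.07% of the 16964 genes tested. Because the 8 were selected on this contrast, nothing is read from those counts. The median log2 fold change of the 8 was 0.02.

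Levels of different genes were compared per kilobase of gene length. In controls the order of mean CPM per kb was Vsir at 25.2, Cd274 at 6.70, Cd86 at 2.95, Cd80 at 0.924, Pdcd1lg2 at 0.509, Sectm1a at 0.127, Sectm1b at 0.100 and Fgl1 at 0.0450. The libraries of neighbouring genes in that order overlapped for Cd80 and Pdcd1lg2, for Sectm1a and Sectm1b, and for Sectm1b and Fgl1. In the mutant-labelled libraries the order was Vsir at 20.1, Cd274 at 5.47, Sectm1b at 3.49, Sectm1a at 2.77, Cd86 at 2.42, Cd80 at 1.03, Fgl1 at 0.897 and Pdcd1lg2 at 0.489 CPM per kb. Both Sectm1 genes were below every B7 and PD-1 ligand in controls, and in mutant-labelled libraries both overlapped Cd86 on this scale. Neighbours whose libraries did not overlap there were Vsir and Cd274, Cd274 and Sectm1b, and Cd86 and Cd80. The order depends on the length used. For Fgl1 the table's 4434 bases include a retained-intron transcript, and per kilobase of its coding transcript of 1120 bases Fgl1 stood at 3.55 ± 0.790 CPM per kb (SD, n = 4) in mutant-labelled libraries, beside 4.25 for Sectm1b, 3.48 for Cd86 and 2.77 for Sectm1a on the same scale. Sectm1a then had a lower mean than Cd86 and Fgl1.

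**Figure D3:**
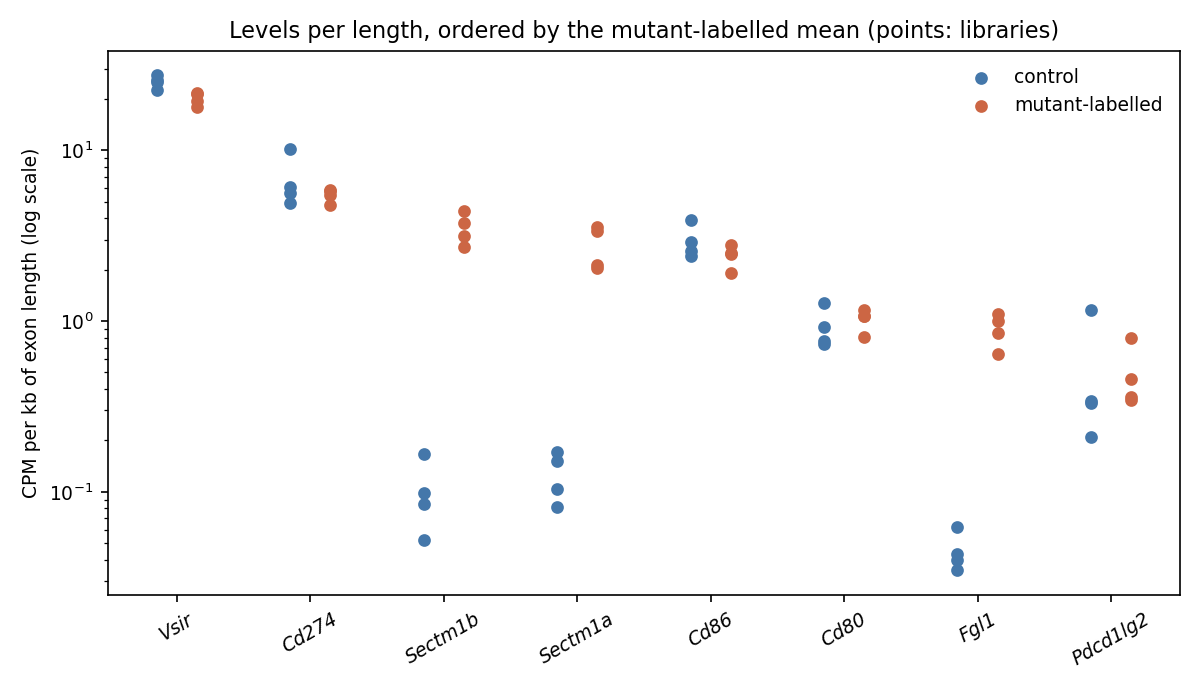
Level of the 8 genes in CPM per kb of gene length on a log axis, with 1 point per library and the genes ordered by their mutant-labelled mean. In the mutant-labelled libraries Sectm1b (2.70 to 4.39) and Sectm1a (2.03 to 3.54) overlap the range of Cd86 (1.92 to 2.78) on this length scale. In the controls both Sectm1 genes lie below Vsir, Cd274, Cd86, Cd80 and Pdcd1lg2.

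Counting did not use strand, so reads from an overlapping gene on the opposite strand cannot be assigned. Sectm1a, Sectm1b, Fgl1, Cd80 and Cd86 overlapped no other gene of the table. Cd274 overlapped AC119228.1, Pdcd1lg2 overlapped A930007I19Rik and Vsir lies within the span of Cdh23, which had 618, 272 and 136 counts over the 8 libraries. The counts of Pdcd1lg2, 148 in all, are the ones for which the antisense partner is of like size.

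Receptors and other binding partners of these proteins were measured in the same libraries, and 1 of 9 rose, a binding partner. Across all genes tested, edgeR's quasi-likelihood test at an adjusted p of 0.05 called 5.45% higher and 2.36% lower. The gene that rose was Igsf11, an adhesion molecule and ligand of VISTA, from 1.68 ± 0.399 to 3.11 ± 0.283 CPM (SD, n = 4 each), 1.86-fold (adjusted p = 0.0259, edgeR). It lost that call when control 3 or any single mutant-labelled library was left out, and with the replicate number as a block (adjusted p = 0.0501, edgeR).

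Cd7, the receptor of the Sectm1 proteins, was at 4.96, 2.89, 2.29 and 2.97 CPM in controls and 3.51, 3.49, 4.93 and 3.17 CPM in mutant-labelled libraries. The groups overlapped, with a log2 fold change of 0.19 ± 0.26 (SE; adjusted p = 0.674, edgeR). Lag3, the receptor of FGL1, had a log2 fold change of 0.13 ± 0.25 (SE; adjusted p = 0.779, edgeR). Tnfrsf18, the gene of GITR, stood at 3.90 ± 1.23 CPM and 5.74 ± 1.41 CPM (adjusted p = 0.223, edgeR). With all 8 libraries, none of these 3 receptors passed the test. Their ligand genes were more than 10 times as abundant in the mutant-labelled libraries. With standard errors near 0.26, modest changes of the receptors could be missed. Without controls 1 and 4, edgeR called 4 of the 9 genes in the list of receptors and partners higher and 1 lower.

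Pdcd1, the gene of PD-1, was at 1.2, 1.17, 0.764 and 0.922 CPM in controls and 2.24, 1.47, 1.23 and 1.99 CPM in mutant-labelled libraries. The groups did not overlap, and the log2 fold change of 0.77 ± 0.26 (SE) did not pass the test (adjusted p = 0.101, edgeR). Cd28 and Ctla4, the receptors of the B7 ligands, had log2 fold changes of 0.11 ± 0.30 and 0.37 ± 0.46 (SE; adjusted p = 0.893 and 0.644, edgeR), from 95 and 102 counts over the 8 libraries. The 16 T and NK cell markers gave 0 calls by edgeR, 0 by DESeq2 and 0 at an unadjusted p under 0.05, while 8 were called higher by edgeR without controls 1 and 4. Their summed level was 99.1 to 182.4 CPM in controls and 127.7 to 143.0 CPM in mutant-labelled libraries.

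Of 38 genes listed as other ligands of T and NK cell receptors, 37 were found by symbol, 31 passed the filter, 4 rose and 1 fell. Some of the listed genes encode enzymes and not ligands, and none of those was called by edgeR. Vtcn1, the gene of the B7 family inhibitor B7-H4, stood at 4.19, 5.03, 5.0 and 5.53 CPM in controls and 13.2, 12.6, 9.86 and 10.2 CPM in mutant-labelled libraries, and so rose 2.32-fold (adjusted p = 0.00115, edgeR). Lgals3, the gene of galectin-3, rose from 136.6 ± 14.1 to 246.5 ± 24.7 CPM, 1.80-fold (adjusted p = 0.000979, edgeR). Tnfsf18, the gene of the GITR ligand, rose from 0.122 ± 0.108 CPM, at the detection floor, to 1.23 ± 0.397 CPM (adjusted p = 0.00677, edgeR).

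Nectin2, an adhesion molecule bound by CD226 and TIGIT, rose 1.43-fold (adjusted p = 0.0140, edgeR), a call that was lost without controls 2 and 3 (adjusted p = 0.0722, edgeR). Tnfsf10, the gene of the death ligand TRAIL, fell from 136.8 ± 16.3 to 98.8 ± 11.8 CPM (adjusted p = 0.0295, edgeR), a call that was lost without control 2 or without mutant-labelled library 1, 2 or 4. Tnfsf18, like Sectm1a a GITR ligand gene, was near the detection floor in controls. The median log2 fold change of the 31 genes was 0.06, beside -0.01 over all genes tested. DESeq2 called 7 higher and 4 lower in the same list.

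A list of 20 other co-receptors of T and NK cells also held a ligand gene and a transcription factor gene. Among the 20, Tnfrsf9 alone rose, from 3.71, 1.10, 1.18 and 2.10 CPM in controls to 12.4, 8.29, 6.11 and 6.38 CPM in mutant-labelled libraries (4.0-fold, adjusted p = 0.0149, edgeR). It encodes 4-1BB, a costimulatory receptor of activated lymphocytes. Without control 1, 3 of the 20 were called higher, and without controls 2 and 3 none was, with Tnfrsf9 at an adjusted p of 0.0605 (edgeR).

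**Figure D4:**
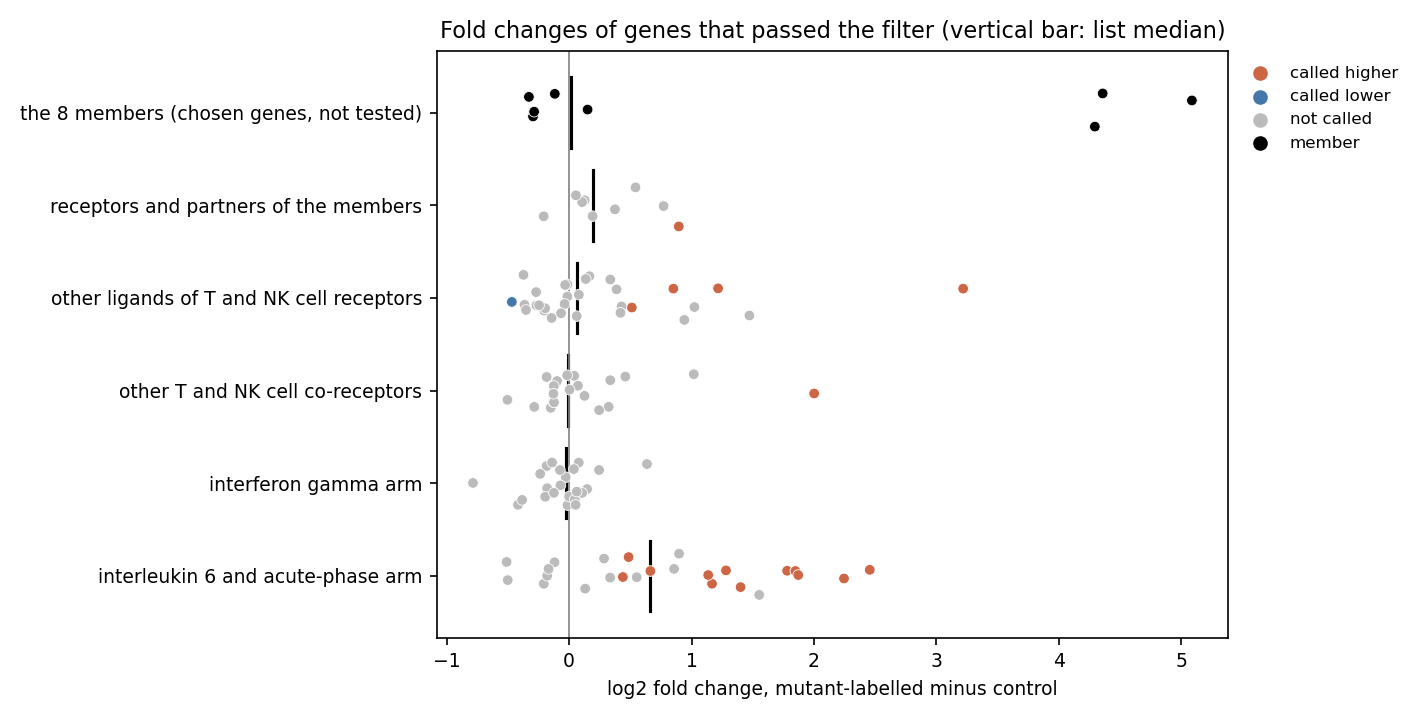
Fitted log2 fold change, mutant-labelled over control, of the 8 ligand genes (the members, not tested) and of each gene tested in the lists of receptors, other ligands, co-receptors and pathways, with calls in colour and the list median as a vertical bar. The interleukin 6 and acute-phase list has its median at 0.66 and the interferon gamma list at -0.03.

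Interferon gamma is known as an inducer of PD-L1. Its pathway genes gave no call by edgeR with all libraries, and whether it bears on the level of Cd274 was not tested. Of 25 genes, 23 passed the filter, and 0 rose or fell by edgeR. At an unadjusted p under 0.05, 1 was higher and 4 were lower, and DESeq2 called 0 higher and 3 lower. Without control 1, edgeR called 2 higher and 1 lower, and without control 4 or mutant-labelled library 3 it called 1 lower. With controls 1 and 4 both left out it called 6 higher and 2 lower. The median log2 fold change was -0.03. Irf1, an interferon-induced transcription factor gene, stood at 155.8 ± 3.68 and 136.1 ± 7.53 CPM (SD, n = 4 each; adjusted p = 0.0961, edgeR).

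Fgl1 is also known as an acute-phase gene that responds to interleukin 6. Genes of that pathway were counted in the same libraries, and whether it bears on the level of Fgl1 was not tested. Across all genes tested, edgeR called 5.45% higher and 2.36% lower. Of 28 genes, 25 passed the filter, 12 rose, 0 fell and 13 were not called, with a median log2 fold change of 0.66 beside -0.01 over all genes tested. At an unadjusted p under 0.05, 15 were higher and 3 lower, and DESeq2 called 15 higher and 2 lower. The receptor genes Il6ra, Il6st and Lifr had log2 fold changes of -0.50, -0.21 and -0.51 (adjusted p = 0.134, 0.222 and 0.0665, edgeR). Saa1, Saa3 and Hp were not called by edgeR either. Lrg1, a secreted acute-phase glycoprotein gene, stood at 61.8, 85.5, 70.1 and 71.4 CPM in controls and 231.6, 260.6, 268.1 and 295.5 CPM in mutant-labelled libraries and so rose 3.66-fold (adjusted p = 1.91e-05, edgeR). Lif, a cytokine of the interleukin 6 family, rose from 5.51 ± 2.18 to 26.5 ± 4.91 CPM, 4.74-fold (adjusted p = 0.00105, edgeR).

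Lcn2, an iron-binding antimicrobial protein gene of inflamed epithelium, rose 2.64-fold (adjusted p = 0.00126, edgeR), and Itih4, an acute-phase protease inhibitor gene, rose 2.43-fold (adjusted p = 0.00296, edgeR). Others called included Il6, Osm, Osmr, Socs3, Orm1, Fgg and Cp. Among the alternative settings Il6 lost its call in 8 of 16, Osmr in 7 of 17, Socs3 in 6 of 17, and Fgg and Cp in 3 of 17 each, while Osm and Orm1 kept theirs in all 17. Osm encodes oncostatin M and Osmr its receptor, Socs3 encodes a feedback inhibitor of the pathway, Orm1 and Cp encode plasma proteins, and Fgg, like Fgl1, encodes a protein with a fibrinogen domain. Fgg rose from 1.26 ± 0.713 to 4.44 ± 1.47 CPM (SD, n = 4 each; adjusted p = 0.0208, edgeR). The related Fgl2 had a log2 fold change of -0.17 ± 0.12 (SE; adjusted p = 0.403, edgeR). The count of 12 was 6 without mutant-labelled library 1 or 2 and 7 without mutant-labelled library 4, and it was 10 without controls 2 and 3. In the same libraries 8 of 12 epithelial markers rose, with a summed level of 1392 to 1821 CPM in controls and 2396 to 2765 CPM in mutant-labelled libraries. The part of epithelial content in the 12 calls was not tested.

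Fgl1 is best known from hepatocytes. Of 12 hepatocyte markers 6 passed the filter, 1 rose and 0 fell, with a median log2 fold change of -0.52. Alb, the gene of serum albumin, was at 1.67 ± 0.594 CPM in controls against 0.908 ± 0.261 CPM in mutant-labelled libraries (adjusted p = 0.108, edgeR). Tat, Fabp1, Apob and Ahsg also passed the filter, with 500, 382, 235 and 209 counts over all 8 libraries, and were not called. The 6 that did not pass had 1 to 40 counts. The 1 marker that rose, Trf, encodes transferrin and was at 508.0 CPM in controls, and it alone set most of the list's summed level of 437.6 to 563.8 CPM in controls and 613.4 to 730.2 CPM in mutant-labelled libraries. Its call was lost without control 2 or mutant-labelled library 1, 2 or 3.

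Markers of the myeloid and B cells that express the B7 ligands and Vsir were present in all libraries. The 17 dendritic cell markers gave 0 calls by edgeR (0 higher and 2 lower at an unadjusted p under 0.05, and 0 higher and 1 lower by DESeq2), with a median log2 fold change of -0.12 and a summed level of 2407 to 3487 CPM in controls and 2959 to 3272 CPM in mutant-labelled libraries. Without control 1, 1 was called higher and 1 lower, and without control 4, 1 was called lower. Of 17 macrophage and monocyte markers 4 rose and 0 fell, with a median of 0.25. They were Mrc1, Chil3, Cd68 and C1qc, the last at an adjusted p of 0.0487 (edgeR). Among the alternative settings C1qc lost its call in 11 of 17 and Cd68 in 4 of 17, while Mrc1 and Chil3 kept theirs. In this list 2 were called without control 2, without mutant-labelled library 1 or without mutant-labelled library 4. Without controls 1 and 4, 7 were called higher. The macrophage list summed to 6047 to 8176 CPM in controls and 6388 to 8699 CPM in mutant-labelled libraries.

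The 9 B cell markers gave 0 calls by edgeR (1 higher and 0 lower at an unadjusted p under 0.05, and 1 higher by DESeq2), and summed to 133.9 to 273.6 CPM in controls and 186.8 to 310.4 CPM in mutant-labelled libraries. Without control 4, edgeR called 2 B cell markers higher. With all libraries, Mmp8 was the 1 of 8 neutrophil markers tested that edgeR called higher. DESeq2 and limma-voom each called 2 neutrophil markers higher, and edgeR called 7 higher without controls 1 and 4. That list summed to 21.5 to 164.9 CPM in controls and 119.3 to 129.1 CPM in mutant-labelled libraries, with control 3 lowest. Of 8 endothelial markers 4 fell, Pecam1, Cdh5, Tek and Ramp2, with a median log2 fold change of -0.43 and a summed level of 3790 to 4906 CPM in controls and 3077 to 3418 CPM in mutant-labelled libraries. The 4 endothelial calls became 7 when control 1 was left out. They became 0 when control 2 or when mutant-labelled library 1, 2 or 4 was left out, and 1 when control 3 or mutant-labelled library 3 was.

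No neighbour of the 8 genes was called. Of 24 protein-coding neighbours, the 2 nearest on each side of each gene, 18 passed the filter and 0 were called in either direction by edgeR or by DESeq2, with 0 higher and 4 lower at an unadjusted p under 0.05. Apart from Sectm1a, Cd7 itself is the nearest protein-coding neighbour of Sectm1b, 14040 bases away, so the gene of the receptor and the genes of its ligands lie in 1 stretch of chromosome 11. Tex19.1, on the other side of the pair, had 0 counts in all libraries, and Csnk1d stood at 203.1 and 208.3 CPM (adjusted p = 0.760, edgeR). Plgrkt, on the minus strand, starts 65 bases from the start of Cd274 and stood at 31.0 and 35.9 CPM (adjusted p = 0.440, edgeR). The neighbours of Fgl1, which are Pcm1, Asah1, Mtus1 and Pdgfrl, had adjusted p-values of 0.483, 0.498, 0.130 and 0.369 (edgeR).

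Genes with the most similar profiles were ranked by the root mean square difference of log2 CPM, each gene centred on its own mean over the 8 libraries. For Sectm1a the closest were Retnlb (0.30), Fgl1 (0.40) and Cdc20b (0.41), and for Sectm1b they were Prss22 (0.27), Ces1c (0.42) and Sectm1a (0.57). For Fgl1 they were the claudin genes Cldn2 (0.19) and Cldn4 (0.21) and the opioid precursor gene Pdyn (0.22). Cldn4 was the most abundant of these, at 6.53 CPM in controls against 82.8 CPM in mutant-labelled libraries. Any gene with a like fold change between the groups scores well here, so the ranking describes the group difference more than the spread within a group.

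The closest profiles of the other 5 ligands had small group differences as well. For Cd274 they were Rubcnl (0.09), Ifi205 (0.11) and Gbp5 (0.13), the last 2 interferon-inducible genes. Gbp5 stood at 33.9, 19.6, 19.3 and 18.1 CPM in controls and 15.5, 16.6, 21.7 and 17.3 CPM in mutant-labelled libraries, with control 1 highest as for Cd274. For Pdcd1lg2 they were Tnf (0.27), Nfkbid (0.29) and Zfp971 (0.30), and Tnf was at 9.44 CPM in control 1 and at 1.58 to 2.36 CPM in the other controls. For Cd80 they were Haus3, Fam98c and Xylt1, for Cd86 Ripk2, Sox18 and Jph1, and for Vsir E2f2, Papolg and Sh3tc1.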

How the data were processed

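The deposited table holds raw counts per gene for 4 control and 4 mutant-labelled libraries. Per the file headers, featureCounts 1.6.2 assigned paired reads to GENCODE M25 genes on GRCm38 without strand, leaving out reads placed at several sites or over several genes. STAR, Bowtie2 and Cufflinks are named in the submitters' processing notes, with no role given. Library kits with and without strand marking are both named in the labels.

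Symbols were matched for 99.5% of 55401 identifiers. Genes passed filterByExpr (minimum count 10, minimum total 15). All 8 libraries entered edgeR 4.0.16 (R 4.3.3), with TMM scaling, a robust quasi-likelihood test on group and Benjamini-Hochberg adjustment over 16964 genes at 0.05. The procedure was tested on simulated counts drawn independently around gene means. These did not hold the split among the controls, so its effect on the calls was not covered. Replicates within a group differed by more than sampling noise (chi-square per gene 4.88 to 45.6). Alternatives were other scalings, filters, tools and prior counts, a replicate block and left-out libraries. A second gene length was added after seeing the data.

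The 8 genes and the lists were chosen with earlier results of these data known. Genes named beside them were up to 4 of the lowest adjusted p per list, defining markers, receptors, neighbours and the 3 closest profiles per gene. Names of other called genes, the other hepatocyte markers, Cxcl9, Cxcl10, Irf1, Fgl2, Fgg, Il6ra, Il6st, Lifr, Saa1, Saa3 and Hp were added after their values were seen. Transcripts are from GENCODE M21 and promoters from RefSeq. Some genes of the lists are counted but not reported here by name. Promoters of Sectm1a, Fgl1 and Cd86 were not used here.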

Additional observations from a re-analysis of the deposited data

Results flagged for a closer look

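In each group of 4 libraries, the gap between an extreme library and the next one was set against the group's whole range, for 101 genes and hence 202 groups. The genes were the 8 ligands, the called genes of the lists, the receptors and defining markers, the neighbours and the closest profiles. The gap passed Dixon's limit in 16 of the 202, where chance alone gives about 1 in 20 groups, and 1 of the 16 concerned the 8 ligands. Pdcd1lg2 was at 2.26 CPM in control 1, with the next control at 0.666 CPM. Control 1 was also alone at the top of its group for Rubcnl (6.12 CPM, next 3.35), Gbp5 (33.9 CPM, next 19.6), Tnf (9.44 CPM, next 2.36), Nfkbid (12.6 CPM, next 5.43) and Jph1 (2.94 CPM, next 2.41). All of these genes were among the closest profiles of a ligand whose highest control was control 1, so they are not independent sightings. Over all 200 list genes that passed the filter, 23 of 400 groups passed the limit, and in 11 of them control 1 was the highest library. These included Cxcl9 (15.8 CPM, next 3.10) and Cxcl10 (26.5 CPM, next 4.05), chemokine genes of the interferon gamma list.

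In other libraries, Tnfsf10 was at 161.1 CPM in control 2 (next 131.1) and Adgre1 at 22.4 CPM in control 4, below the next at 25.3 CPM. Igsf11 was at 3.53 CPM in mutant-labelled library 4 (next 3.0), and Orm1 at 2.91 CPM in mutant-labelled library 3, below the next at 5.83 CPM. In mutant-labelled library 1, Chil3 was at 806.7 CPM (next 612.1), Zfp971 at 8.63 CPM (next 5.62) and Jph1 at 1.67 CPM, below the next at 2.18 CPM. Tex19.2 and Ces1c were each at 0.0512 CPM in control 4 and Rln1 at 0.0560 CPM in mutant-labelled library 3, with the rest of the group at 0, which is a single count.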

How the results depend on the processing

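The replicate numbers did not pair the libraries: same-numbered libraries had correlations of their deviations from the group means of 0.01, 0.13, -0.12 and 0.13, and 3 of 8 libraries correlated best with their own number. With the replicate block, 865 genes were called higher and 371 lower, the receptor list had 0 higher, the other ligands 7 higher, the hepatocyte list 0 higher and the interferon list 1 lower.

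With DESeq2, 939 genes were called lower, and the counts were 1 lower for receptors, 7 higher and 4 lower for other ligands, 3 lower for interferon, 2 lower for interleukin 6, 2 lower for hepatocyte, 1 lower for dendritic, 1 higher for B cell, 2 higher for neutrophil and 7 lower for endothelial genes. With limma-voom, neutrophil had 2 higher and hepatocyte 1 lower. DESeq2's size factors in edgeR, and a stricter filter, each gave 2 lower among other ligands, and Pdcd1lg2 failed that filter. Without a filter, the interferon, interleukin 6 and hepatocyte lists had 1 lower each. With library size alone the median of all genes was 0.05, and 78.4% of calls were higher, beside 69.7%. With a prior count of 2, the log2 fold changes were 3.86 for Sectm1a, 4.66 for Sectm1b and 3.74 for Fgl1.

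Without controls 2 and 3, 223 genes were called lower, co-receptors had 0 higher, macrophage 2 higher, T and NK 1 lower and endothelial 0 lower. Without controls 1 and 4, 3750 genes were called higher and 3338 lower, log2 fold changes were 4.82 for Sectm1a, 0.81 for Pdcd1lg2 and 0.46 for Cd80, and higher and lower calls were 4 and 1 for receptors, 9 and 5 for other ligands, 5 and 1 for co-receptors, 6 and 2 for interferon, 4 and 3 for dendritic genes. The same setting gave 4 lower for interleukin 6, 1 lower for hepatocyte, 7 higher for macrophage, 8 higher for T and NK, 2 higher for B cell, 7 higher for neutrophil and 7 lower for endothelial genes. Fewer libraries were fitted in these 2 settings, and the cause of the differences was not tested.

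With single libraries left out, 515 to 1517 genes were called higher and 146 to 1117 lower, the extremes being mutant-labelled library 1 and control 1. Pdcd1lg2 ran from -0.44 to 0.70. The lists ran from 0 to 1 higher and 0 to 1 lower for receptors, 0 to 3 lower for other ligands, 1 to 3 higher for co-receptors, 0 to 2 higher and 0 to 1 lower for interferon, 6 to 17 higher and 0 to 2 lower for interleukin 6, 0 to 1 higher and 0 to 1 lower for hepatocyte and for dendritic, 2 to 5 higher for macrophage, 0 to 2 higher for B cell, 1 to 2 higher for neutrophil and 0 to 7 lower for endothelial genes.

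Under these settings Sectm1a, Sectm1b and Fgl1 kept their direction. Depth limits them in controls, at 2 to 9 counts per library.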
